A study of Mus musculus with 19 samples.

Results

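The subject is the set of annotated open reading frames (ORFs) that were listed as translated in organoids of normal mouse alveolar type 2 (AT2) cells and in organoids of lung adenocarcinoma (LUAD). Members were the rows typed as annotated, which are the coding sequences already known in the gene models, taken once per ORF identifier and library. They made up 13381 of the 21663 ORFs of every type in the 5 lists (61.8%) and belonged to 6839 genes. Ribosome footprints were collected from C57BL/6 organoids grown on Matrigel-washed plates for 48 h and given 100 µM of the elongation inhibitor cycloheximide for 5 min, a treatment that all groups shared. ORF lists came from 2 AT2 cultures and 3 tumour-derived organoid lines that the design text calls independent. Separate tables gave transcript counts for footprint libraries (3 AT2 and 4 LUAD) and RNA libraries (3 AT2 and 4 LUAD). The LUAD lists carry the name KP in their titles, which the labels do not spell out, and no label gives a genotype, an age, or a link between a given ORF list and a given footprint or RNA library. The labels of the footprint and RNA libraries do not say whether they came from separate cultures, so p-values over them measure the spread between these libraries, which may be technical.

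AT2 cells make and recycle pulmonary surfactant and serve as progenitors of the alveolus, and lung adenocarcinoma can arise from them. A ribosome that is translating protects a short piece of mRNA, and RiboLace pulls down such ribosomes with a puromycin-based probe. Sequencing the protected pieces places each ribosome's P-site, the pocket holding the growing peptide's tRNA, on the transcript. On a translated ORF the P-sites fall preferentially on the first position of each codon, and this 3-nucleotide rhythm is what ORF callers test. A listing therefore says that enough in-frame P-sites were seen for the rhythm to pass a test, and absence from a list is no measure of zero translation. In-frame means reading frame 0, and the deposited RPKM is the number of in-frame P-sites per kilobase of ORF, scaled to the P-site total of the library. Where a gene is given without an ORF, its P-sites and RPKM are each the highest among its listed ORFs in that list. These can come from different ORFs, also between lists.

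The LUAD lists were longer than the AT2 lists, and the longest of all was the most deeply sequenced. AT2 list 1 held 1462 annotated ORFs of 911 genes and AT2 list 2 held 3114 ORFs of 1810 genes. LUAD lists 1, 2 and 3 held 8822, 5669 and 3587 ORFs, of 4686, 3193 and 2100 genes. The AT2 and LUAD ranges did not overlap for ORFs or for genes. The mean was 2288 ± 1168 ORFs (SD, n = 2) for AT2 and 6026 ± 2636 (SD, n = 3) for LUAD, and the exact two-sided permutation test gave p = 0.2, the smallest value that 2 libraries against 3 can give. For genes the means were 1361 ± 636 and 3326 ± 1298 (SD), with the same exact permutation p of 0.2.

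The deepest library had the longest list, but depth did not order the others. In M (1e6), the libraries held 2.70 and 1.42 M P-sites for AT2 and 11.8, 2.73 and 3.08 M for LUAD, so the shallower AT2 library had the longer list, and LUAD list 3 was shorter than LUAD list 2 from a slightly deeper library. In-frame P-sites in the highest annotated ORF of each listed gene made up 0.821% of all P-sites in AT2 list 1 (exact Clopper-Pearson 95% interval 0.810 to 0.831%) and 4.21% in AT2 list 2 (4.18 to 4.25%). The same share was 8.13% (8.11 to 8.14%), 6.34% (6.31 to 6.36%) and 4.25% (4.23 to 4.27%) in LUAD lists 1 to 3. These intervals cover counting error only. Per M P-sites of the whole library, a scaling chosen after seeing the data, the lists held 542 and 2194 annotated ORFs in AT2 and 746, 2074 and 1166 in LUAD. On that scale the groups overlapped, with means of 1368 ± 1168 (SD, n = 2) and 1329 ± 678 (SD, n = 3) and an exact permutation p of 1. There were 35.3 ± 6.96 ORFs per 1000 in-frame P-sites in AT2 (SD, n = 2) and 13.5 ± 7.44 in LUAD (SD, n = 3), which is the inverse of the mean P-sites per listed ORF and no scaling for depth. The part of sequencing depth in the difference of list length was not tested.

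**Figure D1:**
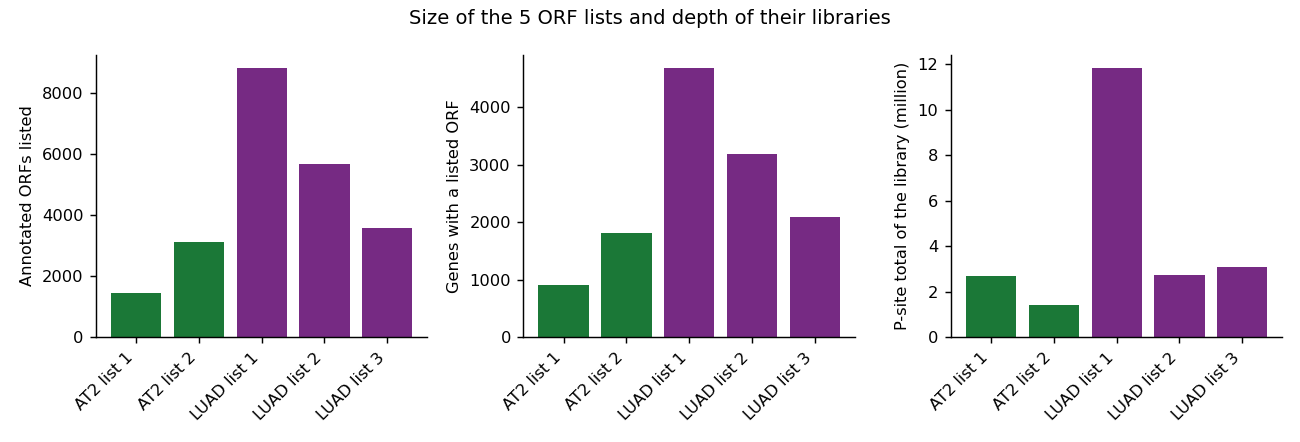
Number of annotated ORFs and of genes with a listed ORF in each of the 5 lists, and the P-site total of each library in M (1e6). Both AT2 lists, 1462 and 3114 ORFs, were shorter than the shortest LUAD list of 3587 ORFs, and LUAD library 1 held 11.8 M P-sites against 1.42 to 3.08 M in the others.

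The listed ORFs had a similar reading-frame preference in both kinds of organoid. Each had been listed because its 3-nucleotide rhythm passed a test, so the shares describe listed ORFs and not whole libraries. The in-frame share of P-sites in annotated ORFs was 46.5% (exact 95% interval 46.2 to 46.9%) and 47.5% (47.2 to 47.7%) in the AT2 lists. In LUAD it was 47.8% (47.8 to 47.9%), 46.8% (46.7 to 46.9%) and 44.1% (44.0 to 44.2%), so the AT2 values lay inside the LUAD range. Overlapping ORFs of a gene count a shared P-site more than once in these sums. The intervals of these shares are therefore too narrow even for counting error. The difference of −0.733 percentage points had an exact permutation p of 1. The remaining P-sites favoured frame 1 in AT2 list 2 and LUAD list 1 (29.2% and 29.3%, against 23.3% and 22.9% in frame 2) and favoured frame 2 in LUAD lists 2 and 3 (31.3% and 31.9%, against 21.9% and 24.0% in frame 1). AT2 list 1 had 25.9% in frame 1 and 27.6% in frame 2. The listed ORFs were thus alike between lists in the leading frame, which the listing selects for. They were unlike in the 2 others, in a way that crossed the organoid groups.

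Most listed ORFs rested on few footprints except in LUAD list 1. The median number of in-frame P-sites per annotated ORF was 14 and 17 in the AT2 lists and 100.5, 27 and 28 in the LUAD lists, and the lowest in any list was 5. At least 20 in-frame P-sites supported 36.0% and 43.9% of the AT2 ORFs and 95.2%, 63.3% and 64.4% of the LUAD ORFs. The authors' combined p was at most 0.05 throughout, and it was under 0.01 for 26.8% and 44.3% of AT2 ORFs and for 62.4%, 51.2% and 41.4% of LUAD ORFs. Median deposited RPKM was 4.32 and 8.0 in AT2 and 6.05, 6.90 and 6.46 in LUAD, with overlap between the groups. The median ORF was 1392 and 1584 nucleotides long in AT2 and 1452, 1455 and 1452 in LUAD (exact permutation p = 0.8). ORFs on transcripts typed as nonsense-mediated decay targets formed 8.07% and 4.78% of the AT2 lists and 6.72 to 6.86% of the LUAD lists. The 100 ORFs with the most in-frame P-sites held 33.7% and 27.9% of the in-frame P-sites in AT2 and 14.6%, 19.8% and 27.9% in LUAD (mean 30.8 ± 4.09% and 20.8 ± 6.70%, SD, exact permutation p = 0.2). A fixed 100 ORFs are a larger part of a shorter list, so this share is not independent of list length. Overlapping ORFs of a gene were counted separately.

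The lists shared few ORFs. Of the 13381 annotated ORFs, 6998 (52.3%) stood in 1 list, 4142 in 2, 1635 in 3, 563 in 4 and 43 (0.321%) in all 5. By gene, 3042 of 6839 (44.5%) stood in 1 list and 49 in all 5. The AT2 lists shared 220 genes, which is 24.1% of list 1 and 12.2% of list 2. AT2 list 1 shared more genes with LUAD list 1 (483, or 53.02% of the AT2 list and 10.3% of the LUAD list) than with the other AT2 list. LUAD list 1 held 68.5% of all 6839 genes and AT2 list 2 held 26.5%, so both overlaps of AT2 list 1 were below those shares. AT2 list 2 shared 1235 genes with LUAD list 1 (68.2% and 26.4%), 933 with LUAD list 2 (51.5% and 29.2%) and 572 with LUAD list 3 (31.6% and 27.2%). LUAD lists 2 and 3 held 46.7% and 30.7% of all genes, so the overlaps of AT2 list 2 were close to each LUAD list's share of all genes. All genes here are those in at least 1 of the 5 lists. Genes in no list would lower each share, so the shares are no measure of overlap by chance. Among the LUAD lists the largest overlap was 2132 genes between lists 1 and 2 (45.5% and 66.8%), and 985 genes were shared by lists 2 and 3 (30.8% and 46.9%). A single ORF stood for 3421 genes (50.02%), and Ctnnd1, which encodes the cadherin-binding p120-catenin, had the most, with 19.

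On the genes they shared, the AT2 lists differed little. Over 154 genes with at least 20 in-frame P-sites in both lists together, AT2 lists 1 and 2 agreed within sampling noise (mean chi-square per gene 0.788, p = 0.972), whereas among the 12 of them with 200 to 600 P-sites they differed (1.84, p = 0.0242). LUAD lists 2 and 3 differed over 859 genes (mean chi-square 1.97, p = 3.47e-57), though not among the 276 with 20 to 60 P-sites (0.75, p = 0.999). Only genes that both lists hold enter these tests. Clu, with 1985 P-sites in AT2 list 2 and absent from AT2 list 1, does not. The AT2 lists were counted as 2 libraries, since the design text calls the cultures independent and the lists differ in their genes. Counting them as 1 library is given beside the ORF test below.

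The footprint and RNA tables supply a second measure for the listed genes, read through the transcript identifiers of the lists. Estimated counts came to 3.03 to 3.83 M in the AT2 footprint libraries, 4.80 to 14.2 M in the LUAD footprint libraries, 4.12 to 10.2 M in AT2 RNA and 27.2 to 33.2 M in LUAD RNA, and 61.3 to 68.9% of them fell on transcripts paired with a listed gene. AT2 footprint library 1 stood apart, with 53.2% of its paired counts on Mettl26, against 4.21% in library 2. Its log2 CPM (counts per M) correlated at 0.8288 and 0.8134 with AT2 libraries 2 and 3, which correlated at 0.935 with each other (Pearson, across genes). The LUAD libraries fell into 2 close pairs, 1 with 2 and 3 with 4. On footprints these correlated at 0.976 and 0.991, against 0.935 to 0.9497 across the pairs, and the mean chi-square per gene was 12.97 and 5.395 within them and 75.3 to 116 across. In RNA it was 38.2 and 28.7 within and 192 to 226 across. The labels do not say whether the libraries of a pair share a source, so tests over 4 LUAD libraries may rest on fewer independent samples. The calls over all genes, over the gene lists and of the named genes are therefore also given with the pairs summed as 2 samples, an alternative chosen after seeing the data, where it ended a call or moved a count by over 1.5 times.

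Whether a gene was listed moved with its footprint level in 4 of the 5 lists. Genes were ranked by mean footprint CPM within each organoid, a rank by number of footprints that takes no account of length. Of the 100 top genes, LUAD lists 1, 2 and 3 held 95%, 85% and 76%, and of those ranked 4001 to 6818 they held 55.0%, 34.6% and 23.8%. AT2 list 2 went from 63% of the top 100 to 15.9% of the lowest class. AT2 list 1 showed no such slope, with 10% of the top 100, 11% of ranks 101 to 500, 14.5% of ranks 2001 to 4000 and 13.2% of the lowest class. Median LUAD footprint CPM climbed from 19.6 for genes in no LUAD list to 33.3, 74.4 and 167 for genes in 1, 2 and 3 of them. In AT2 it was 41.5, 66.7 and 93.8 for genes in 0, 1 and 2 AT2 lists. Every gene ranked has an ORF in at least 1 list, so wholly unlisted genes are outside these shares.

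**Figure D2:**
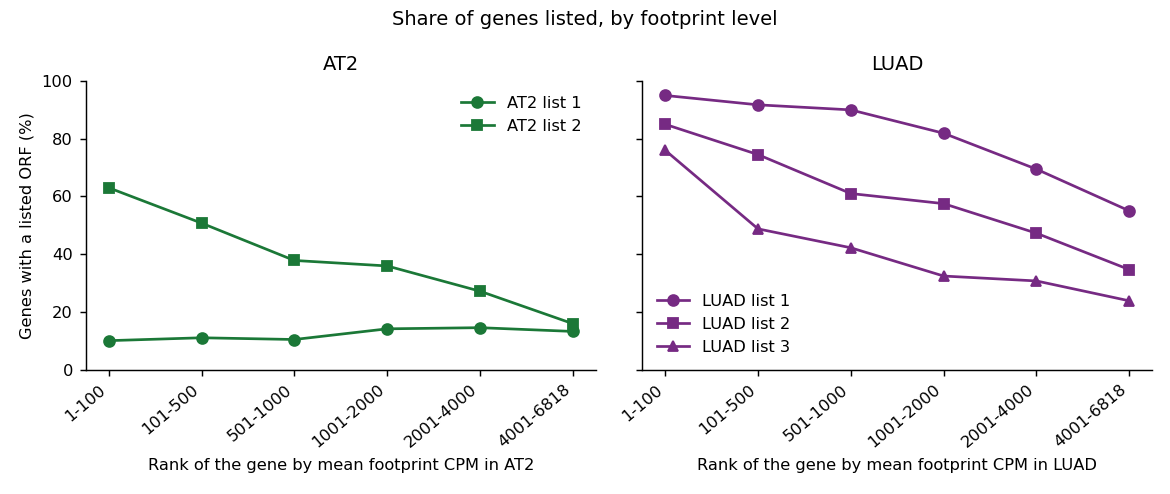
Share of genes with a listed annotated ORF, in percent, by class of footprint CPM rank within the same kind of organoid, with 1 line per list. LUAD list 1 falls from 95% in the top 100 genes to 55.0% in the lowest class, whereas AT2 list 1 stays between 10% and 14.5% in every class.

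In-frame P-sites followed the transcript counts most closely in the LUAD lists. Across the listed genes of each list, the Spearman correlation of in-frame P-sites with the estimated counts of the same organoid's footprint libraries was 0.533 to 0.574 for AT2 list 1 (909 genes) and 0.718 to 0.744 for AT2 list 2 (1805 genes). It was 0.789 to 0.797, 0.781 to 0.814 and 0.792 to 0.80 for LUAD lists 1 to 3 (4670, 3184 and 2091 genes). Genes are not independent replicates, and both measures grow with ORF length.

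Tmsb4x or Clu had the highest RPKM in 4 of the 5 lists. AT2 list 2 opened with Tmsb4x, an actin-sequestering peptide (RPKM 1179), Clu, a secreted chaperone (1040), and Mt1, a metal-binding metallothionein (866). LUAD list 1 opened with Tmsb4x (1502) and Cxcl5, a neutrophil chemokine (840), followed by Ly6e, a surface protein anchored to the membrane by a lipid (805). Clu led LUAD lists 2 and 3 (1920 and 1249), with Actb, cytoplasmic beta-actin, next in both (1170 and 1181), and S100a6, a calcium-binding protein, after it (1047 and 718). AT2 list 1 opened with Rps19, a protein of the small ribosomal subunit (427), then Pfn1, the actin-binding profilin (268), Srpk1, a splicing-factor kinase (141), and Cct4, a chaperonin subunit (124). Actb and Clu were absent from AT2 list 1 although both were among the most abundant footprints of every AT2 library. For Actb the 375-codon ORF (chr5:142903798-142905686, minus strand, mm10) had 970 in-frame P-sites in AT2 list 2 and 10685, 3599 and 4085 in the LUAD lists. Its footprint level was 6838 ± 584 CPM in AT2 (SD, n = 3) and 7264 ± 1000 in LUAD (SD, n = 4), with an adjusted p of 0.799 in edgeR's test.

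The 43 ORFs found in all 5 lists allow a test in every library. They belonged to 29 genes, and few of them passed the test. edgeR's quasi-likelihood test on in-frame P-sites called 2 of 43 (4.65%), none higher in LUAD and 2 lower. Both were overlapping ORFs of Hid1, a gene of secretory granule formation, with 787 and 788 codons at chr11:115348469-115367609 (minus strand, mm10). The 787-codon ORF had RPKM 3.61 and 5.07 in AT2 and 1.68, 4.18 and 2.89 in LUAD. LUAD list 2 lay above AT2 list 1, so the groups overlapped. Its log2 fold change was −0.96 ± 0.28 (SE, Benjamini-Hochberg adjusted p = 0.0482, edgeR), and that of the 788-codon ORF was −0.90 ± 0.28 (adjusted p = 0.0489). The calls were lost (0 of 43) with DESeq2, with limma on RPKM, with library totals in place of TMM scaling, with 1 ORF per gene, and with the AT2 lists summed as 1 sample. Leaving out AT2 list 1 or 2 gave 5 of 472 and 2 of 101 calls, and leaving out LUAD list 1, 2 or 3 gave 10 of 50, 4 of 59 and 0 of 96, all with different sets of shared ORFs. An unadjusted p under 0.05 was reached by 4 ORFs with edgeR, by 4 with DESeq2 and by 12 with library totals. RPKM ranges did not overlap between the groups for 22 of 43 ORFs (51.2%). RPKM is scaled to library totals, whereas the test is scaled by TMM over the 43 ORFs. With library totals the median log2 fold change of the 43 was 0.26, against −0.02 with TMM.

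The 5 genes of highest mean RPKM among the ORFs in all 5 lists were Pfn1, Tagln2, Gsto1, Epcam and Myl12a, and none of them passed the test. Pfn1 (140 codons, chr11:70652124-70654480) had RPKM 262 and 310 in AT2 and 259, 422 and 303 in LUAD, with LUAD list 1 below both AT2 lists. Tagln2, an actin-binding transgelin (199 codons), had 78.9 and 123 in AT2 and 85.9, 208 and 164 in LUAD, again with overlap. Gsto1, a glutathione transferase (166 codons), had 81.2 and 112 against 114, 170 and 131. Epcam, the epithelial adhesion molecule (315 codons), had 82.8 and 70.1 against 99.7, 146 and 117. For Gsto1 and Epcam all LUAD values of RPKM were the higher. Their log2 fold changes in the test, which is scaled by TMM and not to library totals, were 0.23 ± 0.27 and 0.34 ± 0.28 (SE). Neither passed. Myl12a, a regulatory light chain of myosin (172 codons), had 53.9 and 65.5 against 37.4, 65.2 and 64.9. The log2 fold changes of Pfn1, Tagln2 and Myl12a were −0.10 ± 0.29, 0.31 ± 0.29 and −0.42 ± 0.33 (SE).

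Further ORFs in all 5 lists had separated RPKM ranges without a call. Serpinb6a, an intracellular protease inhibitor (378 codons), had 29.1 and 34.2 in AT2 and 68.6, 46.5 and 51.3 in LUAD (log2 fold change 0.55 ± 0.28, adjusted p = 0.384, edgeR). Fat1, an atypical cadherin of 4590 codons, had 7.62 and 9.46 against 17.1, 12.4 and 12.6 (0.44 ± 0.31, adjusted p = 0.497). In the footprint tables, where a change could be tested over 7 libraries, both rose in LUAD. Serpinb6a went from 473 ± 128 CPM in AT2 (SD, n = 3) to 962 ± 91.2 in LUAD (SD, n = 4; log2 fold change 1.02 ± 0.23, adjusted p = 0.0166, edgeR), a call lost on TPM (adjusted p = 0.0842, limma). Fat1 went from 708 ± 111 to 1375 ± 151 CPM (0.96 ± 0.20, adjusted p = 0.0106), while its RNA differed by −0.02 ± 0.25 (adjusted p = 0.957). Of the 10 ORFs called with LUAD list 1 left out, 7 were higher and 3 lower. The Epcam, Serpinb6a and Tagln2 ORFs were among the higher ones, with log2 fold changes of 0.51, 0.41 and 0.71 (adjusted p = 0.0109, 0.0244 and 0.000954, edgeR).

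**Figure D3:**
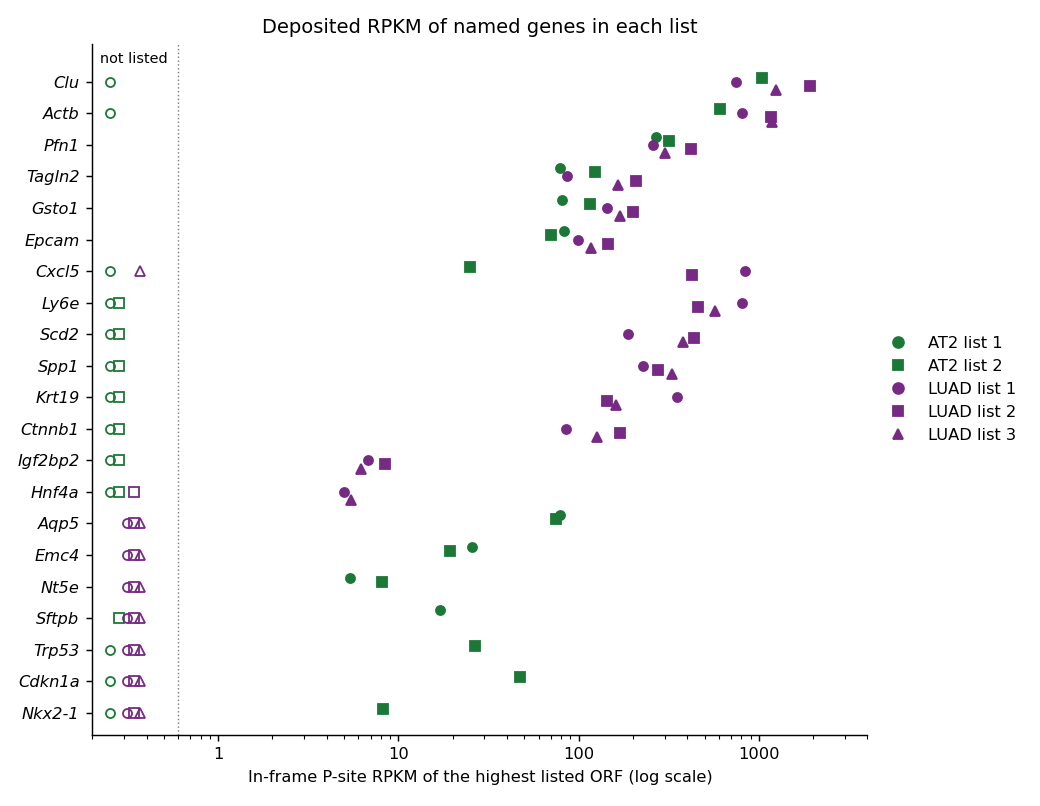
Deposited RPKM (log axis) of the highest listed ORF of 21 genes described in the text, with 1 symbol per list (green AT2, purple LUAD) and open symbols at the left for lists that do not hold the gene. The Pfn1 symbols run from 259 to 422 with AT2 among LUAD, Ly6e to Hnf4a have LUAD symbols alone, and Aqp5 to Nkx2-1 have AT2 symbols alone.

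A wider set, the ORFs in at least 1 AT2 and 2 LUAD lists, held the largest differences of RPKM. Of its 1630 ORFs in 989 genes, limma on log2(RPKM + 1) called 11 (0.675%), with 4 higher in LUAD (0.245%) and 7 lower (0.429%), and 213 had an unadjusted p under 0.05. The 11 belonged to 6 genes. Cxcl5, the gastric protease cathepsin E (Ctse) and the matrix peroxidase peroxidasin (Pxdn) rose, whereas the non-muscle myosin heavy chain Myh14, the cell-surface calsyntenin Clstn1 and the secreted protein Fam3c fell. Each call rested on a value from a single AT2 list, assumed to vary like the LUAD values, as did 1511 of the 1630 ORFs, of which 251 were in AT2 list 1 and 1260 in AT2 list 2. With each library centred on its median over the 43 shared ORFs no call was left, and with LUAD list 1 left out 0 of 690 were called. Without LUAD list 3 there were 18 calls, 6 higher and 12 lower. The AT2 value came from AT2 list 1 for Ctse and Pxdn, on 6 and 5 in-frame P-sites, where 5 was the lowest in any list. It came from AT2 list 2 for Cxcl5, Myh14, Clstn1 and Fam3c. Apart from Cxcl5, the direction of a call thus went with the AT2 list that held its value. Median RPKM was 4.32 in AT2 list 1 and 8.0 in AT2 list 2.

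Of the ORFs that rose, the 132-codon ORF of Cxcl5 (chr5:90759443-90760513) had RPKM 24.9 in AT2 list 2 and 840 and 423 in LUAD lists 1 and 2. The log2 fold change was 4.53 ± 0.52 (SE, adjusted p = 0.0142, limma, on the log2(RPKM + 1) scale). The 397-codon ORF of Ctse (chr1:131661996-131674945) had 1.87 in AT2 list 1 and 24.6 and 39.6 in LUAD lists 1 and 3 (3.49 ± 0.42, adjusted p = 0.0142). Pxdn, with 1475 codons (chr12:29938134-30015570), had 0.419 in AT2 list 1 and 3.804, 6.283 and 5.95 in the LUAD lists (2.14 ± 0.33, adjusted p = 0.0223). Every LUAD value exceeded the only AT2 value for these ORFs. The footprint tables, which hold 3 AT2 libraries, gave 32.9, 25.6 and 39.97 CPM for Cxcl5 in AT2 and 347, 306.7, 501.5 and 492.8 in LUAD (log2 fold change 3.65 ± 0.29, adjusted p = 0.000344, edgeR). Ctse had 43.0, 65.1 and 80.3 CPM in AT2 and 477, 456, 199 and 192 in LUAD (2.38 ± 0.44, adjusted p = 0.00721), without overlap. Pxdn had 11.9, 2.9 and 11.9 CPM against 152, 159, 119 and 116 (3.98 ± 0.45, adjusted p = 0.000963). RNA rose by 6.22 ± 0.59 for Cxcl5 (adjusted p = 0.00023) and by 3.21 ± 0.55 for Ctse (adjusted p = 0.00311). Pxdn RNA was at 0 in the AT2 libraries and at 23.7 ± 5.97 CPM in LUAD (SD, n = 4), so no fold is given.

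Of the ORFs that fell, Myh14 (1992 codons, chr7:44606210-44665497) had RPKM 16.6 in AT2 list 2 and 2.92, 4.28 and 3.43 in the LUAD lists. The log2 fold change was −1.97 ± 0.31 (adjusted p = 0.0223, limma), and 4 overlapping ORFs of the gene were called. Clstn1 (969 codons, chr4:149586682-149647564) had 19.6 in AT2 list 2 and 3.00 and 4.15 in LUAD lists 1 and 2 (−2.18 ± 0.34, adjusted p = 0.0231). Fam3c (197 codons, chr6:22308449-22339300) had 21.5 in AT2 list 2 and 3.29 and 4.95 in LUAD lists 1 and 2 (−2.15 ± 0.36, adjusted p = 0.0307). All 3 were lower in the footprint tables too, with no overlap. Myh14 had 4382, 2099 and 2188 CPM in AT2 and 318, 247, 147 and 150 in LUAD (log2 fold change −3.75 ± 0.40, adjusted p = 0.00079, edgeR). Clstn1 had 721, 507 and 468 CPM against 124, 110, 84.6 and 79.6 (−2.51 ± 0.24, adjusted p = 0.000541), and Fam3c had 250, 292 and 257 against 46.9, 51.2, 43.3 and 51.3 (−2.47 ± 0.16, adjusted p = 0.000189; 0.0604 on TPM with limma). Their RNA fell by 4.40 for Myh14, 3.47 for Clstn1 and 2.71 for Fam3c on the log2 scale (adjusted p = 0.00343, 0.00037 and 1.38e-05, edgeR).

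**Figure D4:**
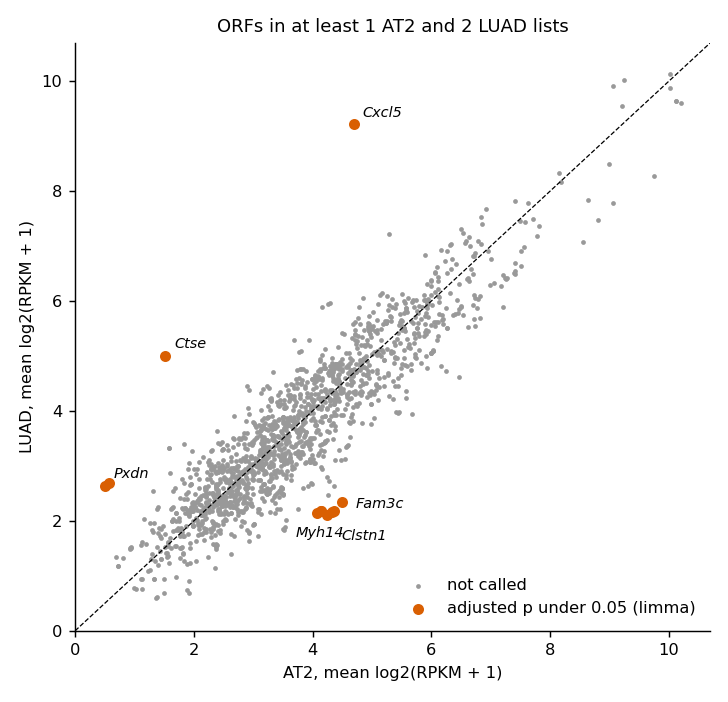
Mean log2(RPKM + 1) in LUAD lists against that in AT2 lists for the 1630 ORFs in at least 1 AT2 and 2 LUAD lists, with the 11 called ORFs marked by gene. Cxcl5, Ctse and Pxdn lie above the diagonal and Myh14, Clstn1 and Fam3c below it, each with 1 AT2 value behind its position.

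On footprints, 1445 of 6529 genes with a listed ORF were called (22.1%), 649 higher in LUAD (9.94%) and 796 lower (12.2%), and the median log2 fold change was −0.02. With scaling on all transcripts the split became 865 higher and 605 lower and the median moved to 0.15. With limma on TPM it was 800 higher and 130 lower at a median of 0.61, so the balance of directions depended on the scaling. In RNA 2511 of 6642 genes were called (37.8%), 1261 higher (19%) and 1250 lower (18.8%), and scaling on all transcripts gave 1775 and 894. Leaving out LUAD footprint libraries 2, 3 and 4 in turn gave 921, 853 and 857 footprint calls, and leaving out AT2 RNA libraries 1 and 2 gave 1653 and 1594 RNA calls. With the LUAD pairs summed as 2 samples the calls dropped to 228 on footprints (99 higher and 129 lower) and to 926 in RNA (465 higher and 461 lower), at medians of −0.01 and 0.04. Of the genes described here, the footprint calls of Hnf4a, Krt8, Krt18, Krt19, Mki67, Kif23, Rnf4, Tmem234, Fat1, Serpinb6a, Emp2, Cav2, Sox9, Abca3, Lpcat1, Lcn2 and Mrc1 were lost in that fit (adjusted p between 0.0597 for Kif23 and 0.198 for Cav2, edgeR), each with the same sign. In bulk organoids, fewer cells of a type and less RNA per cell cannot be told apart.

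Genes listed in one kind of organoid only had footprint changes in both directions. There were 362 genes in all 3 LUAD lists and neither AT2 list. Of the 360 that could be tested on footprints, 52 were higher in LUAD (14.4%) and 51 were lower (14.2%), with a median log2 fold change of −0.03. Their median footprint level was 126 CPM in AT2 and 132 CPM in LUAD, above the 49.99 and 48.98 CPM of all genes. In RNA 76 were higher (21.1%) and 68 lower (18.9%). The shares over all genes tested were 9.94% higher and 12.2% lower on footprints, and 19% and 18.8% in RNA. In the other direction, 36 genes stood in both AT2 lists and no LUAD list. Of 34 tested on footprints, 2 were higher in LUAD (5.88%) and 6 lower (17.6%), with a median of −0.42. Median levels of the 36 were 31.1 CPM in AT2 and 19.7 CPM in LUAD. In RNA 2 of 34 were higher (5.88%) and 10 lower (29.4%). Leaving out single lists changed the 362 to 641 (AT2 list 2), 775 (LUAD list 2) or 1240 (LUAD list 3), and the 36 to 326 and 277 (AT2 lists 1 and 2), 71 (LUAD list 1) or 56 (LUAD list 2).

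**Figure D5:**
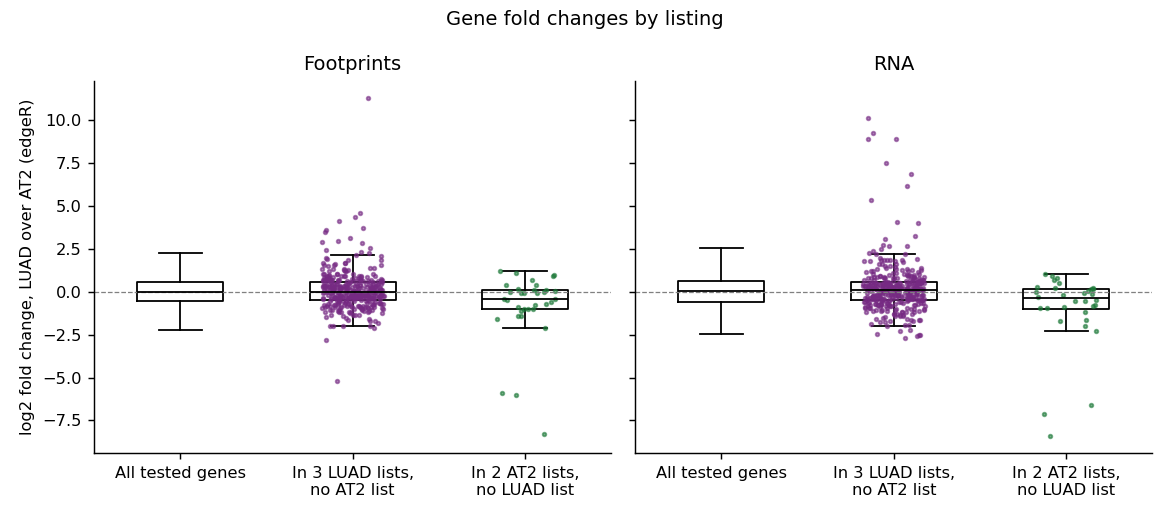
Fitted log2 fold change (LUAD against AT2, edgeR) of footprints and of RNA for all tested genes and for genes held by the lists of one organoid only, with points for single genes and boxes for the median, the quartiles and, as whiskers, the farthest values within 1.5 box heights (values beyond them are not drawn for all tested genes). The 360 genes in all 3 LUAD and neither AT2 list centre on −0.03 for footprints and the 34 in both AT2 lists only on −0.42, beside −0.02 for all genes, and extreme points can be genes at 0 in one organoid.

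The call direction on footprints was only loosely mirrored by listing. Of the 649 genes higher in LUAD, AT2 lists 1 and 2 held 12.3% and 20.3% and the LUAD lists held 76.7%, 50.7% and 34.5%. Of the 796 lower genes they held 13.3% and 36.2%, and 69.1%, 50.6% and 28.4%. All tested genes stood at 13.3% and 27.0%, and at 69.8%, 47.6% and 30.9%. The widest gap between higher and lower genes was in AT2 list 2, and the shares in AT2 list 1 and LUAD list 2 were nearly equal. The gaps were not tested.

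The 10 genes of highest RPKM listed in the 3 LUAD lists alone all had footprints in every AT2 library, with the lowest value, 111 CPM, in Spp1. Their RPKM are those of the highest ORF in each list, which need not be the same ORF. Ly6e had RPKM 805, 459 and 570, the lipid desaturase Scd2 had 187, 434 and 379, and Spp1, the secreted phosphoprotein osteopontin, had 227, 276 and 328. Krt19, a keratin of simple epithelia, had 353, 144 and 161, and Ctnnb1, encoding beta-catenin, had 84.6, 169 and 127. The others were the 14-3-3 protein gene Ywhae (178, 149 and 256), the ribosomal protein genes Rps3 (186, 123 and 231) and Rpl4 (236, 88.5 and 118), the proteasome subunit gene Sem1 (88.6, 134 and 169) and the chloride channel protein gene Clic1 (72.2, 119 and 118). Footprints of these genes did not follow 1 direction. Spp1 had 111, 182 and 384 CPM in AT2 and 2524, 2609, 2815 and 2992 in LUAD, a rise of 3.59 ± 0.43 on the log2 scale (adjusted p = 0.00131, edgeR) beside 6.16 ± 0.66 in RNA (adjusted p = 0.00037). Krt19 went the other way, with 3175, 7826 and 6912 CPM in AT2 and 1445, 1302, 1564 and 1596 in LUAD (−2.02 ± 0.31, adjusted p = 0.00352, edgeR; 0.251 on TPM with limma). Ly6e had 874, 1271 and 1129 CPM against 1011, 1298, 1560 and 1399 (0.27 ± 0.22, adjusted p = 0.431), and Ctnnb1 differed by 0.13 ± 0.23 (adjusted p = 0.736). Ly6e and Ctnnb1 levels overlapped between the organoids, so listing in LUAD alone went with higher, lower and overlapping footprint levels.

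Among the genes listed in both AT2 lists alone, Aqp5 and Nt5e stood near 0 CPM in LUAD. Aqp5, the water channel of alveolar type 1 cells and airway glands, had RPKM 78.4 and 74.4 for its highest listed ORF. Its footprint level was 1065, 464 and 490 CPM in AT2 and 5.2, 0.4, 2.5 and 1.6 in LUAD (log2 fold change −8.28 ± 0.73, adjusted p = 0.000464, edgeR), and its RNA fell by 8.44 (adjusted p = 3.47e-05). Nt5e, the ectonucleotidase CD73 that makes adenosine (576 codons, chr9:88327686-88370317), had RPKM 5.36 and 8.15. Its footprints were at 200, 259 and 207 CPM in AT2 and 4.7, 5.1, 2.5 and 1.5 in LUAD (−6.03 ± 0.42, adjusted p = 0.000222). Every AT2 library was above every LUAD library for both genes. Of the other 8, Tmem234 (RPKM 13.01 and 13.42) was lower on footprints (−1.44 ± 0.22, adjusted p = 0.00311; 0.357 on TPM with limma). Rnf4, a ubiquitin ligase for SUMO-modified proteins (10.8 and 12.1), was higher in LUAD by 1.23 ± 0.25 (adjusted p = 0.0111), with 28.3, 26.5 and 18.8 CPM in AT2 and 44.6, 63.9, 59.3 and 60.3 in LUAD, although no LUAD list held it. The remaining RPKM values were 25.7 and 19.2 for Emc4, 14.4 and 14.5 for Fam98a, 13.9 and 12.2 for Rbms1, 7.83 and 13.2 for Lamtor1, 8.05 and 7.96 for Rc3h1, and 5.52 and 8.99 for Pgpep1.

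Genes of the p53 response were listed most in AT2 list 2, and those called on footprints were lower in LUAD. Trp53 itself, the tumour suppressor transcription factor, was listed in AT2 list 2 alone (390 codons, chr11:69586891-69591431, 44 in-frame P-sites, RPKM 26.5). Its footprints were at 85.0, 121 and 78.8 CPM in AT2 and 1.8, 0.0, 0.9 and 0.8 in LUAD (log2 fold change −6.97 ± 0.76, adjusted p = 0.000855, edgeR), and its RNA fell by 7.42 (adjusted p = 0.00554). The target gene Cdkn1a, a cyclin-dependent kinase inhibitor, had 32 in-frame P-sites in AT2 list 2 and no entry elsewhere. Its footprint level was 572, 515 and 466 CPM in AT2 and 31.1, 20.8, 53.1 and 52.5 in LUAD (−3.71 ± 0.35, adjusted p = 0.00052). Of 25 p53 pathway genes, 13 had a listed ORF, with 1 and 8 in the AT2 lists and 5, 5 and 1 in the LUAD lists. On footprints 7 of the 13 fell and none rose, with a median of −1.52, beside 796 lower and 649 higher of 6529 genes and a median of −0.02. Sesn2, a stress-induced inhibitor of mTORC1, and Zmat3, an RNA-binding p53 target, fell by 3.68 ± 0.27 and 2.76 ± 0.28 (adjusted p = 0.000245 and 0.000599, edgeR) and were both listed in AT2 list 2 alone. In RNA 6 of the 12 members tested fell, beside 18.8% of all genes. Perp was the 1 member that rose in RNA (log2 fold change 1.02 ± 0.34, adjusted p = 0.0438, edgeR), beside 19% of all genes. These and the later gene lists can be measured only where a member has an ORF in some list, so their counts describe listed members and are no independent support.

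Of the identity genes of AT2 cells that were called on footprints, all were lower in LUAD with edgeR. Of 22, 10 had a listed ORF, with 3 and 4 in the AT2 lists (30% and 40%, beside 13.3% and 26.5% of all genes) and 5, 3 and 5 in the LUAD lists. Sftpc, the surfactant protein that defines the AT2 cell, and Lamp3, a lamellar body membrane protein, were not listed, so the lists offer no value for them. Sftpb, another surfactant protein gene, had 47 in-frame P-sites on its 376-codon ORF (chr6:72304625-72312932) in AT2 list 1 alone, with footprints at 31.1, 50.4 and 34.2 CPM in AT2 and 0 in each of the 4 LUAD libraries (adjusted p = 0.000747, edgeR). Nkx2-1, the lung lineage transcription factor, had 13 in-frame P-sites in AT2 list 2 (372 codons, chr12:56533035-56535060, RPKM 8.21). Its footprints stood at 408, 89.1 and 71.5 CPM in AT2 and at 0.5, 0, 0 and 0 in LUAD, which is 2 counts in all (adjusted p = 0.000599). AT2 and LUAD libraries were far apart for both genes. On footprints 6 of the 10 fell and none rose (median −1.72), and with the LUAD pairs summed 4 were lower. DESeq2 called 1 member higher and 6 lower, and limma on TPM 2 higher and 4 lower (median −0.88). In RNA 2 were higher and 6 lower. Of all genes tested, 9.94% were higher and 12.2% lower on footprints, and 19% and 18.8% in RNA. Abca3, the lamellar body lipid transporter, was listed in LUAD lists 1 and 3 with 255 and 56 P-sites and in no AT2 list, while its footprints fell from 239 ± 75.5 CPM (SD, n = 3) to 90.4 ± 19.8 (SD, n = 4; log2 fold change −1.40 ± 0.26, adjusted p = 0.00778; 0.258 on TPM). Lpcat1, which makes the saturated phosphatidylcholine of surfactant, was listed in AT2 list 2 and LUAD lists 2 and 3 (33, 48 and 49 P-sites) and fell by 2.47 ± 0.58 (adjusted p = 0.0196; 0.057 and 0.0578 without LUAD library 3 or 4).

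Genes of alveolar type 1 and of transitional alveolar cells were more often called lower than higher in LUAD. Of 20 type 1 genes, 10 had a listed ORF (2 and 6 in AT2, 6, 5 and 6 in LUAD), and 5 fell and 1 rose on footprints (median −1.36). The membrane protein gene Emp2 fell by 3.16 ± 0.54 (adjusted p = 0.00575, edgeR). The caveolin gene Cav2 rose by 1.13 ± 0.34 (adjusted p = 0.0452), a call lost without AT2 library 2 (adjusted p = 0.0987) or any 1 LUAD library (0.0594 to 0.105). Of 22 transitional genes, 21 had a listed ORF (1 and 15 in AT2, 16, 13 and 13 in LUAD), with 10 lower and 1 higher (median −1.14). All genes tested on footprints stood at 12.2% lower and 9.94% higher. On TPM with limma the counts were 3 lower and 2 higher for type 1 genes and 2 lower and 1 higher for transitional genes, and with the LUAD pairs summed 1 and 2 genes were lower and none higher. The keratin Krt8, a marker of that state, had 306 in-frame P-sites in AT2 list 2 and 977 and 244 in LUAD lists 1 and 2. Its footprints were at 6654, 14820 and 14200 CPM in AT2 and 3179, 2876, 3310 and 3406 in LUAD (−1.90 ± 0.30, adjusted p = 0.00377; 0.301 on TPM). Its partner Krt18 was lower too (log2 fold change −1.86 ± 0.39, adjusted p = 0.012; 0.396 on TPM). Sfn, the epithelial 14-3-3 sigma, fell by 3.26 ± 0.28 (adjusted p = 0.000383) and was in AT2 list 2 and LUAD list 1.

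Genes normally used by stomach, gut or liver that were called on footprints were all higher in LUAD. Of 32, 11 had a listed ORF, with 3 and 2 in the AT2 lists and 11, 8 and 6 in the LUAD lists, and 8 of the 11 (72.7%) were in no AT2 list, beside 4338 of all 6839 genes (63.4%). On footprints 8 rose and none fell (median 3.70), and the same counts were found in RNA and on TPM with limma, against 5 higher on footprints with the LUAD pairs summed. The shares over all genes tested were 9.94% higher and 12.2% lower on footprints, and 19% and 18.8% in RNA. Hnf4a, a transcription factor of liver and gut, had 84 and 24 in-frame P-sites in LUAD lists 1 and 3 (474 codons, chr2:163547305-163570091). Its footprints stood at 6.4, 0 and 0 CPM in AT2 and 59.4, 48.9, 36.7 and 35.4 in LUAD (5.00 ± 1.08, adjusted p = 0.0139, edgeR). Lgals4, a galectin of the gut lining, had 27 and 9 P-sites in LUAD lists 1 and 2 (326 codons, chr7:28834182-28841633), with footprints at 0 in each AT2 library and 13.7, 20.3, 31.7 and 29.4 CPM in LUAD (adjusted p = 0.00194). No AT2 library reached the lowest LUAD library for Hnf4a or Lgals4. Prom1, the membrane glycoprotein CD133, was in all 3 LUAD lists (315, 67 and 76 P-sites, RPKM 10.4, 9.88 and 9.83) and rose from 15.3 ± 15.8 to 327 ± 76.5 CPM (4.35 ± 0.64, adjusted p = 0.00299). The intestinal keratin Krt20 had 287 and 47 P-sites in LUAD lists 1 and 2 and rose by 3.23 ± 0.30 (adjusted p = 0.000523). The claudin gene Cldn2 had 61 and 15 P-sites there, with footprints at 0.828 ± 1.12 CPM in AT2 and 35.7 ± 15.1 in LUAD (adjusted p = 0.00289). Epcam and Ceacam1, both in all 5 lists, and Tff1, a mucosal trefoil peptide, were the 3 members not called.

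Oncofetal genes, which are active in the embryo and silent in most adult tissue, gave 6 listed members of 16, of which 3 rose and 1 fell on footprints (median 1.81). Over all genes tested, 9.94% were higher and 12.2% lower. Igf2bp2, an mRNA-binding protein, was in all 3 LUAD lists, and its 524-codon ORF (chr16:22060793-22161280) had 104, 30 and 30 in-frame P-sites. Its footprints were at 3.7, 5.0 and 4.6 CPM in AT2 and 71.3, 82.5, 87.2 and 77.4 in LUAD (log2 fold change 4.13 ± 0.25, adjusted p = 0.000174, edgeR). Hmga2, an architectural chromatin protein, was in LUAD list 1 alone with 65 P-sites on 108 codons (chr10:120364252-120476063). Its footprints were at 13.7, 12.2 and 28.1 CPM in AT2 and 127, 130, 132 and 151 in LUAD (2.88 ± 0.32, adjusted p = 0.000891). The 2 genes were each separated by a wide gap on footprints while their listing ranged from 1 to 3 LUAD lists. Hmga1, a relative of Hmga2, was in AT2 list 1 alone and yet rose by 2.18 ± 0.26 (adjusted p = 0.00128). Sox9, a transcription factor of the embryonic lung tip, was in LUAD list 3 alone and fell by 2.12 ± 0.38 (adjusted p = 0.00696; 0.0822 on TPM with limma).

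Of the cell cycle genes that passed the test on footprints, all were higher in LUAD. Of 42, 40 had a listed ORF, with 3 and 12 in the AT2 lists and 36, 22 and 14 in the LUAD lists, and 13 rose and none fell (median 1.07). In RNA 32 rose and none fell. Among all genes tested, 9.94% were higher and 12.2% lower on footprints, and 19% and 18.8% in RNA. With the LUAD pairs summed, 2 were higher on footprints and 14 in RNA, and none lower. Mki67, a coat protein of mitotic chromosomes (3177 codons, chr7:135690089-135716139), had 51 in-frame P-sites in AT2 list 2 and 1544 in LUAD list 1, and rose from 200 ± 14.2 to 419 ± 27.8 CPM (1.07 ± 0.16, adjusted p = 0.00329, edgeR). The mitotic cyclin Ccnb2, the kinetochore protein Cenpf and the cytokinesis motor Kif23 rose by 2.31 ± 0.30, 1.65 ± 0.22 and 1.36 ± 0.19 (adjusted p = 0.00178, 0.002 and 0.00228). Ccnb2 and Cenpf were in no AT2 list, and Kif23 was in AT2 list 2 and LUAD lists 1 and 3.

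Most called inflammatory and sterol genes were higher in LUAD, and the called MHC class I genes were lower. For comparison, 9.94% of all genes tested on footprints were higher and 12.2% lower. Of 24 NF-kB and inflammatory genes, 20 had a listed ORF (1 and 6 in AT2, 16, 11 and 3 in LUAD), with 10 higher and 2 lower on footprints (median 1.42), and 6 and 1 with the LUAD pairs summed. Il1rn, the interleukin-1 receptor antagonist, rose by 3.93 ± 0.46 (adjusted p = 0.00118, edgeR) although it was in both AT2 lists and LUAD list 1. The adhesion receptor Icam1, listed in AT2 list 2 alone with 49 P-sites, fell by 3.28 ± 0.24 (adjusted p = 0.000245). Of 24 cholesterol synthesis genes, 21 had a listed ORF (1 and 4 in AT2, 21, 10 and 12 in LUAD), with 8 higher and 2 lower (median 0.70), and 2 and 0 with the pairs summed. The squalene synthase gene Fdft1 and the sterol oxidase gene Msmo1 rose by 1.25 ± 0.16 and 1.72 ± 0.24 (adjusted p = 0.00178 and 0.00231). Of 17 MHC class I genes, 8 had a listed ORF (0 and 4 in AT2, 6, 6 and 3 in LUAD), with 4 lower and none higher (median −1.22), and on TPM 1 was lower and with the pairs summed 2 were. The antigen-presenting chain H2-K1 fell by 2.69 ± 0.22 (adjusted p = 0.000328), a value that is uncertain because reads of near-identical H2 genes can be split between them. B2m, its invariant partner, had 53 P-sites in AT2 list 2 and 301, 126 and 166 in LUAD and differed by 0.09 ± 0.19 on footprints (adjusted p = 0.774).

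Cytosolic ribosomal protein, proteasome and oxidative phosphorylation genes were listed at shares near those of all genes in AT2 list 2. In LUAD lists 1 and 2 their shares were above those of all genes, and the differences were not tested. Other housekeeping sets differed. The 52 mitochondrial ribosomal protein genes were below all genes, at 11.5% in AT2 list 2. They were also below in LUAD lists 1 and 2, at 63.5% and 36.5%. Translation factor and ribosome biogenesis genes were above all genes in AT2 list 2, at 41.7% and 41.9%. For comparison, all 6839 genes were listed at 13.3% and 26.5% in AT2 and at 68.5%, 46.7% and 30.7% in LUAD. The counts are of members with a listed ORF. The 23 cytosolic ribosomal protein genes were listed 1 and 6 times in AT2 (4.35% and 26.1%) and 19, 14 and 11 times in LUAD (82.6%, 60.9% and 47.8%), and 1 was higher and none lower (median 0.18). The 35 proteasome genes were listed 2 and 11 times in AT2 (5.71% and 31.4%) and 32, 18 and 12 times in LUAD (91.4%, 51.4% and 34.3%), with 1 higher and 2 lower, and with the LUAD pairs summed none of either was called. The 64 oxidative phosphorylation genes were listed 10 and 20 times in AT2 (15.6% and 31.2%) and 50, 34 and 14 times in LUAD (78.1%, 53.1% and 21.9%). Of the 59 tested on footprints 11 fell and none rose (median −0.29), beside 12.2% of all genes lower. On TPM with limma none was called in either direction, and the median was 0.46 beside 0.61 for all genes. With the LUAD pairs summed 1 was lower. Eef2, the ribosomal translocation factor, had 692 P-sites in AT2 list 2 and 5035, 1357 and 1271 in LUAD, at RPKM 189, 165, 193 and 161, and its footprints differed by 0.31 ± 0.18 (adjusted p = 0.263, edgeR; 0.0333 with DESeq2). Eef1a1, which delivers aminoacyl-tRNA, was in LUAD list 1 alone although its footprints reached 3302 ± 917 CPM in AT2 (SD, n = 3) and 5313 ± 1309 in LUAD (SD, n = 4; adjusted p = 0.126; 0.0462 with DESeq2).

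Atf4, the effector of the integrated stress response, was in LUAD list 1 alone (RPKM 20.2) and had footprints at 117 ± 46.5 CPM in AT2 and 164 ± 68.5 in LUAD (adjusted p = 0.4). Lcn2, the iron-sequestering lipocalin, was in LUAD lists 1 and 2 (RPKM 114 and 117), with footprints at 0, 12.6 and 0 CPM in AT2 and 72.8, 72.2, 76.9 and 74.1 in LUAD (adjusted p = 0.0246; 0.0538 to 0.059 when any 1 LUAD library was left out). For Lcn2 every LUAD library was above every AT2 library.

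Markers of other cell types were sparse in the lists. Of 6 club cell and 7 endothelial markers none had a listed ORF. Of 14 leukocyte markers 2 were listed, each in a single LUAD list. Cd14, a co-receptor for bacterial lipopolysaccharide, had 158 in-frame P-sites in LUAD list 1, and its footprints were at 7.37 ± 2.14 CPM in AT2 (SD, n = 3) and 63.5 ± 3.60 in LUAD (SD, n = 4; log2 fold change 3.14 ± 0.28, adjusted p = 0.000464, edgeR). Mrc1, the macrophage mannose receptor, had 10 P-sites in LUAD list 3, with 1.56 ± 2.02 and 26.02 ± 8.01 CPM (3.83 ± 0.74, adjusted p = 0.00901). Of 11 fibroblast markers Bgn, the matrix proteoglycan biglycan, was the one listed, in all 3 LUAD lists with 259, 87 and 86 P-sites, and it rose from 3.24 ± 0.495 to 77.0 ± 31.8 CPM (4.59 ± 0.47, adjusted p = 0.000668). Unlisted markers have no gene pairing here, so their levels were not read, and the part of other cells in the differences above was not tested.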

How the data were processed

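Annotated ORFs were read from 5 lists (2 AT2, 3 LUAD), with mm10 positions (per the submitters' processing notes). The caller and the aligner: not given in the sources used here. Per the file headers, each row holds P-site counts by reading frame, an RPKM of in-frame P-sites and a combined p-value, all made by the authors. Identical ORF identifiers on several transcripts were reduced to 1 row per library, the row with the most in-frame P-sites (0.75 to 1.48% of identifiers had unequal rows). The footprint and RNA tables hold estimated counts and TPM, deposited as kallisto output per the submitters' processing notes. Estimated counts were rounded and summed to genes through the transcript identifiers of the lists: 21668 of 21889 paired transcripts (99.0%) were among the 118489 of the tables. CPM are scaled by TMM.

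P-site counts and gene counts were tested with edgeR 4.0.16 (quasi-likelihood, TMM, low counts filtered, adjusted p under 0.05), in R 4.3.3, with limma 3.58.1 and DESeq2 1.42.0 as alternatives, and library values with exact permutation tests (scipy 1.17.1). The pseudocount for log2(RPKM + 1) was 1. Scripts were tested on simulated data. Same-numbered RNA libraries varied together (correlations of deviations 0.144, 0.149 and 0.243), but differently numbered ones did as much (0.153 for 1 with 2, 0.199 for 2 with 1 and 0.225 for 3 with 4, AT2 first), so pairing by number is not shown. Rules for naming genes were: ORFs past the test with separate RPKM ranges and at least 50 P-sites (none met this), the 10 genes of highest RPKM listed in one kind of organoid only, the 5 of highest RPKM in all 5 lists, up to 3 members per direction of each gene list by smallest adjusted p, and a fixed set of lineage, growth and housekeeping genes. Hid1, the 6 genes of the wider set, Serpinb6a, Fat1, Abca3, Lpcat1, Prom1 and the leading genes of each list were chosen after their values were seen. The members and lists were chosen with earlier results of these data known. No sequences are printed.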

Additional observations from a re-analysis of the deposited data

Results flagged for a closer look

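In 9 of the 87 groups of 4 libraries examined, 1 library lay far from the other 3, and chance alone gives about 1 in 20. On footprints in LUAD, these were the highest value of Nkx2-1 (0.518 CPM, the others at 0), the lowest of Tmem234 (29.3 CPM), the lowest of Serpinb6a (827 CPM), the highest of Sfn (236 CPM) and the highest of Lgals3 (556 CPM), a galectin. In LUAD RNA they were the highest value of Trp53 (4.22 CPM), of Igf2bp2 (74.6 CPM) and of Fam3c (76.1 CPM). The total of estimated counts was low in 1 LUAD footprint library, at 4.80 M (M, 1e6).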

How the results depend on the processing

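The ORF test on P-sites called 2 of 43 ORFs. DESeq2, limma on log2(RPKM + 1) and on log2(RPKM + 0.1), library totals and 1 ORF per gene each called 0, as did the summed AT2 lists, an alternative added after seeing the data. Leaving out single libraries gave 0 to 10 calls. The wider set gave 11 of 1630. Alternatives of it added after seeing the data gave 7 with 1 ORF per gene, 0 with centring, and 0 to 18 with single libraries left out (8, 3, 0, 8 and 18 without AT2 lists 1 and 2 and LUAD lists 1, 2 and 3). In checks on named ORFs, the called ones (those of Hid1) kept the call in 4 cases and lost it in 21, and the uncalled ones stayed uncalled in 165, passed the test in 5 and changed sign in 6. The changes of sign were those of the Pfn1 ORF (log2 fold change −0.10): 0.17 on both RPKM scales, 0.19 with library totals, and 0.03, 0.12 and 0.08 without AT2 list 1, LUAD list 1 or LUAD list 3 (−0.29 to 0.12 over single lists left out). Footprint calls (1445) were 930 with limma on TPM and 853 to 1852 with single libraries left out (921, 853 and 857 without LUAD libraries 2, 3 and 4; 1852 without AT2 library 1). RNA calls (2511) were 1594 to 3287, with 1653 and 1594 without AT2 libraries 1 and 2. With the close LUAD pairs summed, chosen after seeing the data, they were 228 and 926. Named genes called on footprints kept the call in 714 checks and lost it in 66, and uncalled ones stayed so in 141 and passed in 2. In RNA the called genes kept it in 186 and lost it in 9.

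With the replicate number as a block, the ORF test called 0, footprints 956 and RNA 2586. The ORF libraries of the same number correlated at 0.277 and 0.334 in 2 pairs only. Deviations of 2 AT2 lists from their mean are mirror images, so these values cannot decide whether the ORF libraries are paired. The footprint libraries of the same number correlated at 0.34, −0.26 and 0.28, and differently numbered RNA libraries correlated as highly as same-numbered ones. Pairing by number is therefore not shown. In RNA the block changed the call of none of the 15 named genes checked.

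The surplus of listed ORFs in LUAD (3738) ran from 2340 to 4957.5 without single lists and was −39.2 per M library P-sites, chosen after seeing the data. Per 1000 in-frame P-sites, another quantity that falls as the P-sites per ORF grow, it was −21.7. That of genes ran from 1286 to 2579. The in-frame difference ran from −1.53 to 0.344 without single lists (0.344 without LUAD list 3), and was 0.988 with at least 20 P-sites and −2.35 at a combined p under 0.01. The length difference ran from −131 to 61 (61 without AT2 list 2) and was 164 at a combined p under 0.01 and −209.5 with at least 20 P-sites. The share of the top 100 ORFs ran from −13.6 to −6.97, and was −24.2 at a combined p under 0.01 and −18.1 with at least 20 P-sites. Genes in LUAD lists only (362) numbered 1827 when 2 lists sufficed, 135 at a combined p under 0.01, and 417 to 1240 without single lists. Genes in AT2 lists only (36) numbered 567 when 1 list sufficed, 13, and 46 to 326. The AT2 ORFs rested on the fewest P-sites, with medians of 14 and 17 per ORF.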
